A study of Homo sapiens with 12 samples.

Results

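Metallothioneins are very small, cysteine-rich proteins that bind zinc and copper through thiol clusters and buffer free metal. The genes examined here were MT1E, MT1F, MT1G, MT1M, MT1X, MT2A and MT3, taken by symbol from the table of gene counts: 7 of its 59653 genes. Transcription of the MT1 and MT2 genes is induced by zinc and cadmium through the metal-sensing factor MTF1, and by glucocorticoids and oxidative stress. MT3 is found mainly in the brain, responds little to metals, and was first known as a factor that inhibits neuronal growth.

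The libraries were made from total RNA of human neurons differentiated from induced pluripotent stem cells of IMR-90, a lung fibroblast line, so that all of them come from 1 line. The control group (siNC) received a negative control siRNA and the other group (siZCC) an siRNA against ZCCHC17, an RNA-binding protein with a CCHC zinc finger, with 6 libraries in each group. No time, dose, genotype or added metal is given in the labels, and the sample titles add NPC, which no label spells out. The labels do not say whether the 6 replicates were separate cultures, so the p-values measure the spread between these libraries, which may be technical. The comparison asks which genes differ in RNA level when ZCCHC17 is reduced.

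The libraries held 90755953 to 120023356 counts in siNC and 76115083 to 105389055 in siZCC. ZCCHC17, in CPM (counts divided by the TMM-scaled library total), was at 53.99 to 61.0 in the controls and at 9.37 to 10.6 after its siRNA. The libraries fell into separate sets in the counts of IL1B, an inflammatory cytokine gene. It had 449 to 1512 counts in 6 libraries (siNC replicates 2, 3 and 6, and siZCC replicates 1, 4 and 5) and 2 to 12 counts in the others, so each group held 3 libraries of either kind. These are called high-IL1B and low-IL1B libraries below, and the members are given within each set where the sets differ. Neuronal markers were present, with MAP2 at 1027 ± 104 CPM in siNC (SD, n = 6), but TUBB3 was at 14.2 ± 0.629 CPM and RBFOX3 at 1.27 ± 0.148 CPM. GFAP, the astrocyte intermediate filament, was at 615.5 ± 82 CPM in siNC (SD, n = 6). The summed CPM of 14 astrocyte markers in siNC (3877 to 4140) was close to that of 14 neuronal markers (3801 to 4262). The sum of 12 neural progenitor markers was larger, at 6564 to 6977 CPM in siNC. VIM alone gave 3550 ± 109 CPM of it (SD, n = 6). In such bulk RNA, fewer cells of a type and less RNA per cell cannot be told apart.

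Coding sequences of 3 members are shown because they carry the feature that defines the family, and because MT1F and MT1X passed the test below while MT2A did not. They were taken from GENCODE v29 transcripts of GRCh38 and run from start to stop codon; capitals mark the in-frame cysteine codons, TGC or TGT.
MT2A: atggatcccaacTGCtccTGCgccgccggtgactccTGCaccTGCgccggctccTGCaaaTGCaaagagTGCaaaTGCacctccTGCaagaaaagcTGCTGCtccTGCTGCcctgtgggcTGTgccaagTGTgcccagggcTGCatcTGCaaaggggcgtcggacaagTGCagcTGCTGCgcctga
MT1F: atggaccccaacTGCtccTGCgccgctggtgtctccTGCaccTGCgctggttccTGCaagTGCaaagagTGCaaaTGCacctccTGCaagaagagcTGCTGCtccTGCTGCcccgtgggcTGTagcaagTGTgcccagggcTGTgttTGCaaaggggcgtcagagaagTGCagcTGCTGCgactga
MT1X: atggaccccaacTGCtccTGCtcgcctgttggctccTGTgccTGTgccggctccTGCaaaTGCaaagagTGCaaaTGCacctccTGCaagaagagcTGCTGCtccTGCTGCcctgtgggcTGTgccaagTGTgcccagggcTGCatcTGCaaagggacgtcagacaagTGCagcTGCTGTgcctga
MT2A and each of the 5 MT1 members had 20 cysteine codons, 32.8% of their 61 codons. Coding identity was 88.7% to 95.2% among these 6 genes. This nearness bears on the counts, since short reads can fit several members. Of the 50-base words in the chosen transcript of MT1X, 45.1% occurred in another gene, against 20.2% for MT1G, 7.1% for MT1M, 5.3% for MT1E, 4.9% for MT2A, 3.6% for MT1F and 0% for MT3. At 75 bases the shares were 31.6% for MT1X and 6.6% for MT1G, and 0.8% or less for the others. How reads with several matches were counted is not given in the sources used here, so MT1X and MT1G are the least certain members and MT3 the most distinct.

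All members lie within one cluster on chromosome 16 (positions from GENCODE v29, GRCh38). In order along the chromosome these are MT3 (56589074 to 56591088), MT2A (56608199 to 56609497), MT1E (56625475 to 56627112), MT1M (56632233 to 56633986), MT1F (56657694 to 56660698), MT1G (56666731 to 56668065) and MT1X (56682424 to 56684196). MT1G is on the minus strand and the other 6 are on the plus strand. MT1X shares 1727 bases with AC026461.1, a transcript annotated on the same strand, which had 0 counts in every library. MT3, called higher in siZCC in the test below, comes first, and MT1X, called lower, comes last. MT1F, also called lower, is separated from MT1X by MT1G, which was not tested. Between MT3 and MT1F lie MT2A and MT1E, which were not called, and MT1M, which was not tested.

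**Figure D1:**
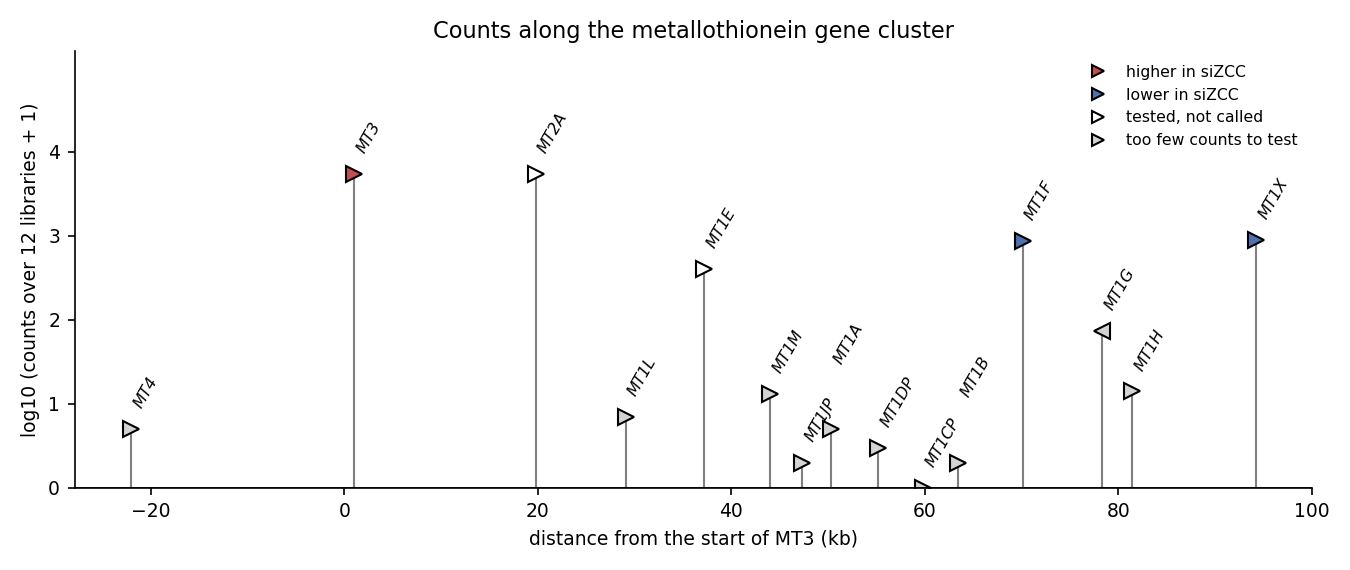
Total counts over 12 libraries (log10 of counts + 1, vertical axis) of metallothionein genes against distance from the start of MT3 in kb (horizontal axis); arrowheads point along the direction of transcription and colours give the test result. MT3 and MT2A held 5354 and 5370 counts, while the genes between MT1M and MT1F held few or none.

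MT2A and MT3 made up most of the family's counts. Of the 12942 counts of the 7 members over all libraries, MT2A held 41.5%, MT3 41.4%, MT1X 6.77%, MT1F 6.61%, MT1E 3.11%, MT1G 0.564% and MT1M 0.0927%. The other metallothionein genes that were listed gave 31 counts in all. MT1H had 13, MT1L 6, MT1A and MT4 4 each, MT1DP 2, and MT1B and MT1JP 1 each, and MT1HL1 and MT1CP had 0.

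Levels between genes were compared per length. Per kb of annotated exon, the order in siNC was MT2A at 3.32 ± 0.337 CPM per kb (SD, n = 6), MT3 at 1.81 ± 0.627, MT1X at 0.462 ± 0.0646, MT1F at 0.444 ± 0.0987 and MT1E at 0.314 ± 0.0453. MT1G at 0.0743 ± 0.0108 and MT1M at 0.0104 ± 0.0183 came last. MT1X and MT1F did not differ beyond their spread. The order of MT2A and MT3 depended on the length used: per kb of the single transcript chosen for each gene, MT2A was at 5.49 ± 0.557 CPM per kb and MT3 at 5.85 ± 2.02 in siNC (SD, n = 6), and at 5.93 ± 0.895 and 10.3 ± 1.71 in siZCC. All of these were low levels: summed CPM of the 7 members ran from 7.94 to 12.1 in siNC and from 10.3 to 13.9 in siZCC.

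The members did not change in 1 direction. Of the 7, 5 passed the filter on low counts (MT1G and MT1M did not), and among these MT3 rose, MT1F and MT1X fell, and MT2A and MT1E did not pass the test. The test was the quasi-likelihood test of edgeR over 24671 genes, with p-values adjusted by Benjamini-Hochberg and a threshold of 0.05, which called 22.2% of all genes tested, 11.4% as higher and 10.8% as lower in siZCC. With so few members tested, the count is given as a description. The median log2 fold change of the 5 was 0.01, and that of all genes tested was -0.0016. For no member were the groups of CPM values free of overlap, a separation seen in 9.74% of all genes tested.

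**Figure D2:**
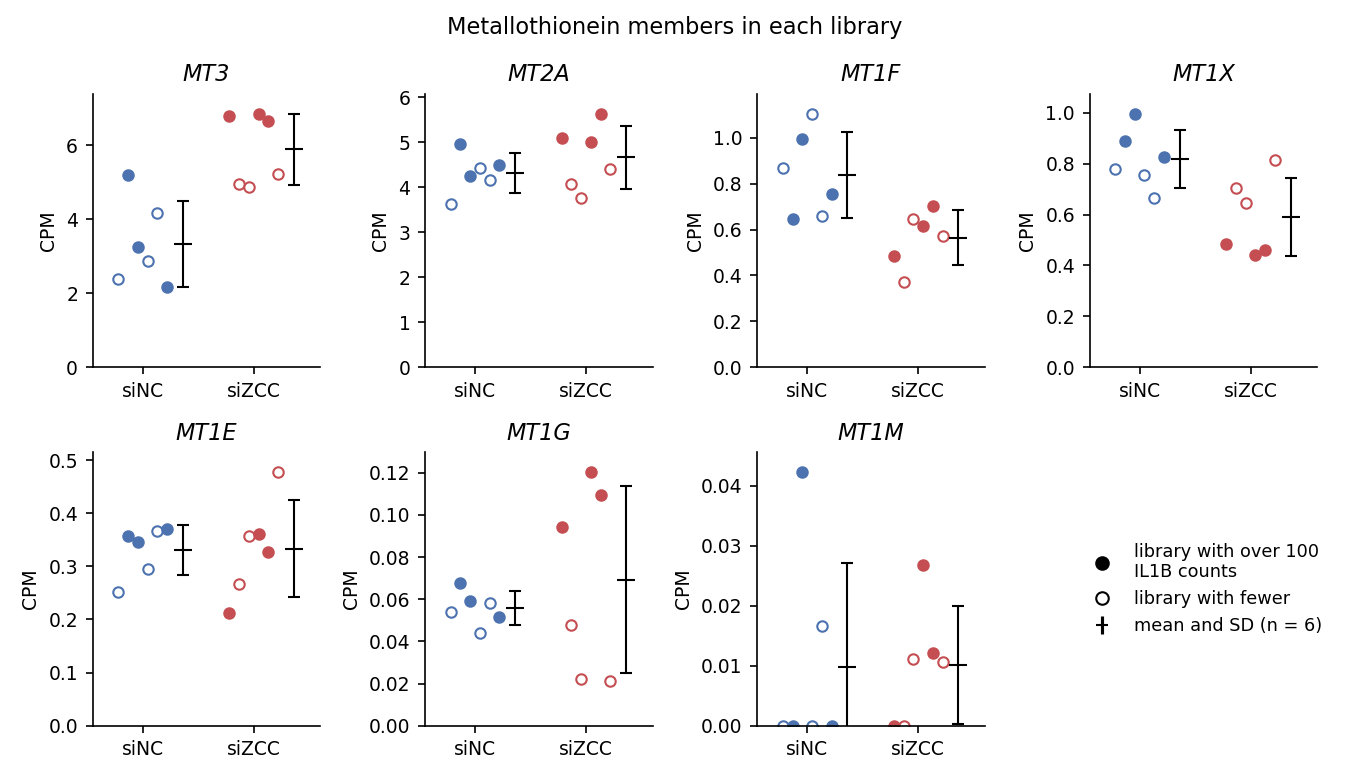
CPM (vertical axis, from 0, a separate scale for each gene) of the 7 members in each of 6 siNC and 6 siZCC libraries; filled points are the libraries with over 100 IL1B counts, and the black mark and bar give the mean and SD. MT3 sits at 2.16 to 5.18 CPM in siNC and 4.86 to 6.85 in siZCC, and the filled siZCC points of MT1X lie lowest.

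MT3, the brain form, had the largest change of the tested members. In siNC it ran from 2.16 to 5.18 CPM with a median of 3.05, and in siZCC from 4.86 to 6.85 CPM with a median of 5.94. These levels rest on 251 to 611 and 436 to 574 counts per library. In siZCC, 4 of 6 libraries lay above every siNC library, and the overlap came from siNC replicate 2 at 5.18 CPM. Means were 3.33 ± 1.15 CPM and 5.88 ± 0.97 CPM (SD, n = 6), and the log2 fold change was 0.81 (SE 0.175, 95% interval 0.45 to 1.18), or 1.76-fold (edgeR's quasi-likelihood test, adjusted p = 0.00306). The siNC libraries were spread over a wider range, relative to their mean, than the siZCC libraries.

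Within the IL1B sets the MT3 groups did not overlap, with 3 libraries against 3 in each set. So few libraries can separate without any difference, and the share of all genes separated within a set was not counted. Among high-IL1B libraries MT3 was at 2.16 to 5.18 CPM in siNC and 6.65 to 6.85 in siZCC. Among low-IL1B libraries it was at 2.37 to 4.16 CPM in siNC and 4.86 to 5.22 in siZCC. The log2 fold change was 0.94 (SE 0.227, adjusted p = 0.0304) in the first set and 0.67 (SE 0.164, adjusted p = 0.037) in the second, each from edgeR's quasi-likelihood test. The difference between the sets, 0.27 (SE 0.328), did not pass the test (adjusted p = 0.952). In siZCC the 3 high-IL1B libraries were the 3 highest for MT3.

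Astrocyte markers also moved in this comparison, as did markers of other cell types. Of 14, 8 were higher and 1 lower in siZCC, where 11.4% and 10.8% of all genes tested were, and their summed level was 3877 to 4140 CPM in siNC and 4289 to 4874 CPM in siZCC, with no overlap and no marker at 0. ALDOC, a glycolytic aldolase of astrocytes, rose by 0.98 on the log2 scale (SE 0.0877, adjusted p = 1.39e-06), NDRG2 by 0.47 (SE 0.0735, adjusted p = 0.000248) and CLU, which encodes the secreted chaperone clusterin, by 0.37 (SE 0.049, adjusted p = 5.12e-05; edgeR's quasi-likelihood test for all 3). GFAP did not pass the test, at 615.5 ± 82 CPM in siNC and 653.5 ± 128 after the ZCCHC17 siRNA (SD, n = 6), and the astrocyte water channel gene AQP4 fell by 0.21 (SE 0.0575, adjusted p = 0.015). Of 14 neuronal markers 1 was higher (0 on leaving out any 1 library other than siNC replicate 2 or 5 or siZCC replicate 3) and 7 were lower, with sums of 3801 to 4262 CPM in siNC and 3411 to 3886 CPM in siZCC. Of 12 neural progenitor markers 4 were higher and 1 lower, with overlapping sums of 6564 to 6977 CPM in siNC and 6617 to 7165 CPM in siZCC. Of 5 tested pluripotent cell markers 3 were higher and 1 lower, and of 7 endothelial markers 0 were higher and 2 lower. Of 9 mesenchymal cell or fibroblast markers 1 was higher and 3 lower. Of 7 oligodendrocyte lineage markers 1 was lower, and of 4 microglia markers 0 were called. Without 1 library, pluripotent markers called higher numbered 2 to 3 and mesenchymal markers called lower 0 to 3. The part of these shifts in the rise of MT3 was not tested.

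MT2A, the most widely expressed family member in human tissues, did not pass the test. In siNC it ran from 3.62 to 4.95 CPM with a median of 4.33, and in siZCC from 3.77 to 5.63 CPM with a median of 4.71, so the groups overlapped for most of their range. The means were 4.32 ± 0.438 CPM and 4.67 ± 0.704 CPM (SD, n = 6), with a log2 fold change of 0.11 (SE 0.0943, 95% interval -0.09 to 0.31; edgeR's quasi-likelihood test, adjusted p = 0.452). The interval leaves out changes as large as that of MT3. Within siZCC, MT2A was at 5.01 to 5.63 CPM in high-IL1B libraries and 3.77 to 4.41 CPM in low-IL1B libraries, without overlap in 3 against 3. In siNC the corresponding ranges, 4.25 to 4.95 and 3.62 to 4.42 CPM, did overlap.

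The ratio of MT3 to MT2A was taken in each library, a pair chosen with results of these data known. In siNC the log2 ratio of MT3 to MT2A ran from -1.06 to 0.07 (mean -0.44 ± 0.422, SD, n = 6), and in siZCC from 0.24 to 0.45 (mean 0.33 ± 0.0904, SD, n = 6). CPM are not scaled by gene length, so only the difference of the ratio between the groups is read. The groups did not overlap, and the difference of 0.77 had p = 0.00216 in an exact permutation test (two-sided, all assignments of the 12 libraries), the smallest p that 6 against 6 can give. The difference was 0.83 among the high-IL1B libraries and 0.71 among the low-IL1B libraries, each with p = 0.1 in the same exact test, the smallest that 3 against 3 can give. Over all 12 libraries the ratio separated the groups while the level of either gene overlapped. Within each IL1B set the level of MT3 also did not overlap, but these were 3 against 3, without a count of all genes that did the same.

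**Figure D3:**
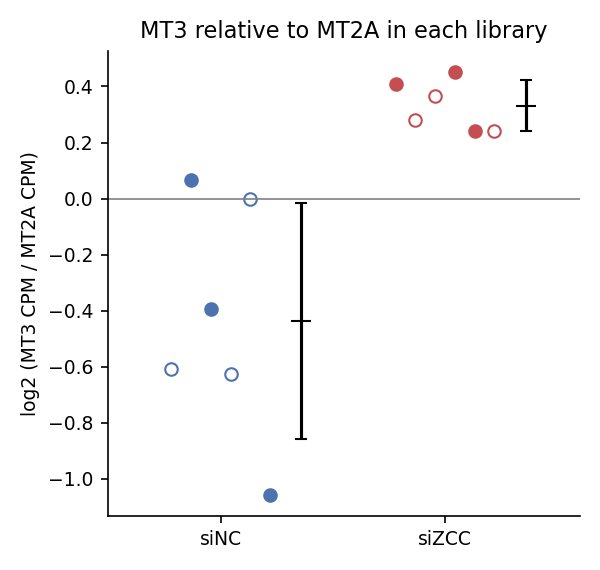
Log2 of MT3 CPM over MT2A CPM (vertical axis) in each library of siNC and siZCC; filled points are libraries with over 100 IL1B counts, and the black mark and bar give the mean and SD (n = 6). All siZCC points lie between 0.24 and 0.45, above every siNC point.

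MT1F and MT1X, metal-inducible MT1 isoforms, were lower in siZCC. MT1F ran from 0.645 to 1.11 CPM in siNC (median 0.813) and from 0.371 to 0.704 CPM in siZCC (median 0.593), on 76 to 118 and 39 to 58 counts. In siZCC, 4 of 6 libraries lay below every siNC library. Means were 0.838 ± 0.186 and 0.565 ± 0.121 CPM (SD, n = 6), and the log2 fold change was -0.57 (SE 0.166, 95% interval -0.92 to -0.22; edgeR's quasi-likelihood test, adjusted p = 0.0207). The 12 fits that each left out 1 library kept this call, with changes between -0.64 and -0.47. Neither IL1B set alone passed the test, at -0.42 (adjusted p = 0.262) among high-IL1B and -0.72 (adjusted p = 0.104) among low-IL1B libraries.

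MT1X ran from 0.667 to 0.997 CPM in siNC (median 0.802) and from 0.441 to 0.816 CPM in siZCC (median 0.565), on 69 to 118 and 33 to 77 counts. Again 4 of 6 siZCC libraries lay below every siNC library. Means were 0.819 ± 0.115 and 0.592 ± 0.153 CPM (SD, n = 6), with a log2 fold change of -0.45 (SE 0.152, 95% interval -0.77 to -0.13; edgeR's quasi-likelihood test, adjusted p = 0.0405). The lower values of MT1X were those of the high-IL1B siZCC libraries. These had 0.441 to 0.484 CPM against 0.825 to 0.997 in high-IL1B siNC, a log2 fold change of -0.97 (SE 0.169, adjusted p = 0.00794). Low-IL1B libraries had 0.646 to 0.816 CPM in siZCC and 0.667 to 0.779 in siNC, a change of -0.02 (SE 0.161, adjusted p = 0.961). The difference between the sets was -0.95 (SE 0.216, unadjusted p = 0.000529) and did not pass edgeR's quasi-likelihood test over all genes (adjusted p = 0.935). That interaction test called 0 of 24671 genes (0%), with 1177 genes, or 4.77%, at an unadjusted p under 0.05. The MT1X call was also the least firm of the 3, being lost on leaving out any of 9 libraries, with adjusted p-values of 0.0507 to 0.0919 there (siNC replicate 1, 2, 3, 4 or 6, or siZCC replicate 1, 3, 4 or 5).

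MT1E did not pass the test, with means of 0.331 ± 0.0476 and 0.334 ± 0.0906 CPM (SD, n = 6). It ran from 0.251 to 0.37 CPM in siNC (median 0.351) and from 0.213 to 0.477 CPM in siZCC (median 0.342), on 18 to 45 counts per library. The siZCC range enclosed that of siNC. The log2 fold change was 0.01 (SE 0.181, 95% interval -0.38 to 0.39; edgeR's quasi-likelihood test, adjusted p = 0.986). The sign of this value changed with the processing.

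MT1G and MT1M were near the limit of detection. MT1G had 4 to 8 counts per library in siNC and 2 to 9 in siZCC, in all 38 and 35. Within siZCC its counts were 8, 9 and 9 in the high-IL1B libraries and 5, 2 and 2 in the low-IL1B libraries. MT1M had 0 to 5 counts in siNC and 0 to 2 in siZCC, in all 7 and 5. With no filter on low counts, the log2 fold change was 0.25 for MT1G (SE 0.422, adjusted p = 0.777) and -0.08 for MT1M (SE 0.911, adjusted p = 0.967) in edgeR's quasi-likelihood test. A change of the size of that of MT3 was not detectable at this depth in either gene.

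Since reads can pass between near-identical genes, the counts of the 5 MT1 members and of MT1XP1, a processed pseudogene on chromosome 1 similar to MT1X, were also added up before the fit. The sum averaged 2.42 ± 0.254 CPM in the controls against 1.85 ± 0.229 CPM with the ZCCHC17 siRNA (SD, n = 6), and the groups were adjacent but did not overlap. Its log2 fold change was -0.39 (SE 0.0916). MT1XP1 itself had 24 to 60 counts in siNC and 18 to 32 in siZCC, with a log2 fold change of -0.40 (SE 0.188; edgeR's quasi-likelihood test, adjusted p = 0.141). Moving reads among these genes would leave the sum as it is. It would not restore reads dropped for several matches, nor reads shared with MT2A, which is outside the sum. MT1F and MT1X, called lower above, gave 855 and 876 of its counts, so the sum is not separate from their calls. Adding the counts of AC026461.1 to MT1X changed nothing, as it had none.

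After removing each group's mean, the members were compared across libraries. Pearson's r of log2 CPM between MT3 and MT2A was 0.61 over the 12 libraries, and between MT2A and MT1X it was -0.47. Among MT1E, MT1F and MT1X the values were 0.36 for MT1E with MT1X, 0.16 for MT1E with MT1F and -0.15 for MT1F with MT1X. The points share each library's depth, and the MT1 values carry counting error, so the coefficients are descriptions only.

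Outside the family, the genes whose pattern across the 12 libraries was most like that of MT3 were RNF157, PODXL2, ADGRB2, SPRYD3 and CNTFR. Likeness was Pearson's r of log2 CPM centred within each group, over the 12625 genes averaging 5 CPM or more. The highest of so many r values over 12 libraries can be large for unrelated genes, so both rankings in this paragraph are descriptions only. RNF157, an E3 ubiquitin ligase, had r = 0.975, PODXL2, the sialomucin endoglycan, 0.962, and ADGRB2, an adhesion receptor of brain, 0.96. SPRYD3 and CNTFR, the ligand-binding subunit of the ciliary neurotrophic factor receptor, had 0.956 each. RNF157 rose by 0.19 on the log2 scale (adjusted p = 0.00183), PODXL2 by 0.26 (0.00145), ADGRB2 by 0.38 (6.39e-05) and CNTFR by 0.40 (8.23e-05; edgeR's quasi-likelihood test), while SPRYD3 had 0.07 (adjusted p = 0.163). All 5, and MT3, were above the median of tested genes in GC content: 54.8% to 64.2% in their longest transcripts and 59.2% for MT3, against a median of 48.2%. The other tested members, at 53.5% to 58.2%, were also above it. So were the 5 genes most like the MT1 and MT2A sum, named below, at 51.8% to 64.2%. With a correction for GC content and length the change of MT3 was 0.79 (SE 0.167, adjusted p = 0.00224). The values of r were not recalculated with that correction. For the summed CPM of the MT1 members and MT2A, the most alike were MCAT (r = 0.926), HPS6 (0.922), SART1 (0.912), SLC38A7 (0.893) and NKIRAS2 (0.89), none of which passed the test, with adjusted p-values from 0.0588 to 0.982. MCAT, at -0.14 and nearest the threshold, was called lower in 6 alternatives (adjusted p-values of 0.00519 to 0.0456), and SLC38A7 in both fits with the GC and length correction (0.019 and 0.0357).

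**Figure D4:**
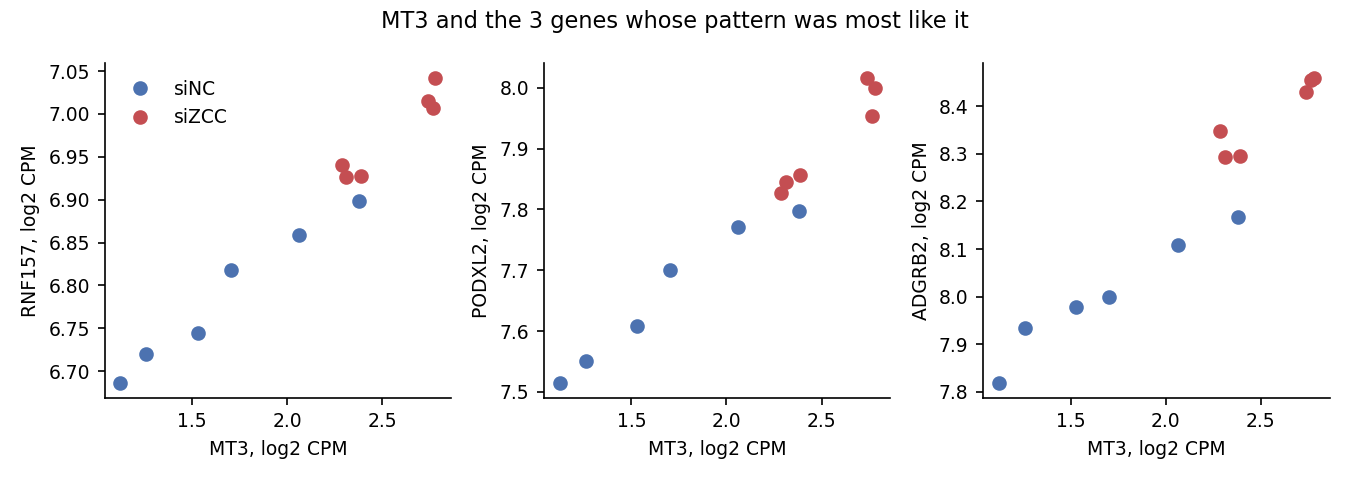
Log2 CPM of RNF157, PODXL2 and ADGRB2 (vertical axes, not from 0) against log2 CPM of MT3 (horizontal axis), with 1 point for each of 12 libraries coloured by group. All 3 genes tend to be higher where MT3 is higher within each group, and r after centring within groups is 0.96 to 0.975. In siZCC the high-IL1B libraries lie above the low-IL1B libraries for MT3 and all 3 genes. The order inside the low-IL1B siZCC set differs: replicate 3 is lowest for MT3 (2.29) but above replicate 2 for ADGRB2 (8.35 against 8.29).

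Among genes that export and sense zinc, few passed the test. None of the 8 tested zinc exporters of the SLC30 family passed the test in either direction (edgeR's quasi-likelihood test; DESeq2 and voom also called 0, and 1 had an unadjusted p under 0.05). Leaving out siNC replicate 2 gave 1 call, SLC30A1 (-0.15, adjusted p = 0.0415), and leaving out siZCC replicate 2 gave 1 other, SLC30A9 (-0.07, adjusted p = 0.0472). SLC30A1, the plasma membrane exporter induced by MTF1, was at 33.4 ± 2.7 and 30.9 ± 2 CPM in siNC and siZCC (SD, n = 6; log2 fold change -0.11, SE 0.0528, adjusted p = 0.144). MTF1 itself, the zinc sensor, was at 39.3 ± 2.08 and 37.97 ± 1.55 CPM (SD, n = 6; -0.05, adjusted p = 0.403). Of 8 genes in the list of zinc sensing and MTF1 targets, 1 rose: GCLC, the catalytic subunit of the enzyme that limits glutathione synthesis, by 0.18 (SE 0.0349, adjusted p = 0.00127). Without siZCC replicate 5, TXNRD1, a thioredoxin reductase, was a further call (0.09, adjusted p = 0.0476). TXNRD1 was also called higher by the DESeq2 Wald test (0.07, adjusted p = 0.0491). The GC and length correction called it too (0.0851, adjusted p = 0.0148), also with the replicate block (0.085, adjusted p = 0.0215), in edgeR's quasi-likelihood test. The background shares of 11.4% higher and 10.8% lower apply to this and the following lists.

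Of 13 tested zinc importers of the SLC39 family, 2 rose and 1 fell. SLC39A4, the importer mutated in the zinc deficiency acrodermatitis enteropathica, ran from 1.15 to 1.85 CPM in siNC and from 2.07 to 2.67 CPM in siZCC, without overlap, a log2 fold change of 0.60 (SE 0.101, adjusted p = 0.000486). SLC39A12, an importer found mainly in brain, ran from 5.08 to 6.29 CPM in siNC and from 3.66 to 4.91 CPM in siZCC, also without overlap, at -0.42 (SE 0.0768, adjusted p = 0.000918). SLC39A11 rose by 0.22 (SE 0.0512, adjusted p = 0.00551; edgeR's quasi-likelihood test for all 3). The other 10 did not pass.

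Metallothioneins also bind copper. Of 17 genes of copper handling, 2 rose and 2 fell. The count of 2 that rose was not stable: it was 0 without siZCC replicate 6, 1 on leaving out replicate 1 or 4 of siNC or replicate 1, 3 or 5 of siZCC, and 3 without siZCC replicate 2. CP, the copper-carrying ferroxidase ceruloplasmin, fell by 0.93 on the log2 scale (SE 0.145, adjusted p = 0.000266), from 2.82 ± 0.404 to 1.47 ± 0.396 CPM (SD, n = 6), and COMMD1, involved in copper export, fell by 0.18 (SE 0.0474, adjusted p = 0.0109). SLC31A1, the main copper importer, rose by 0.09 (SE 0.0263, adjusted p = 0.0202; edgeR's quasi-likelihood test for each). That call of SLC31A1 was lost with no filter on low counts (adjusted p = 0.098), with the replicate block (0.0591), without siZCC replicate 3 (0.0679) or 6 (0.0563), and in both IL1B sets (0.336 and 0.116).

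Of 16 genes of iron handling, 7 rose and 2 fell; 1 fell on leaving out any 1 library other than siNC replicate 5 or 6 or siZCC replicate 6. HMOX1, the inducible heme oxygenase, rose by 0.44 (SE 0.0469, adjusted p = 7.87e-06) and FTL, the ferritin light chain, by 0.33 (SE 0.0448, adjusted p = 7.07e-05), while SLC40A1, the iron exporter ferroportin, fell by 0.38 (SE 0.0534, adjusted p = 0.000107; edgeR's quasi-likelihood test). Among 19 targets of the oxidative stress factor NRF2 and other redox genes, 6 rose and 3 fell. OSGIN1 rose by 0.47 (SE 0.0545, adjusted p = 1.9e-05), and NQO1, a quinone reductase and classical NRF2 target, fell by 0.30 (SE 0.0397, adjusted p = 5.17e-05), so the members of that list went both ways.

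Genes that respond to glucocorticoids, which also induce MT1 and MT2 genes, were examined next, as were heat shock genes. Of 12 glucocorticoid response genes 2 rose and 2 fell; 1 fell on leaving out any 1 library other than siNC replicate 2 or 5 or siZCC replicate 1 or 3. KLF15, a glucocorticoid-induced transcription factor, ran from 9.53 to 11.4 CPM in siNC and from 15.0 to 16.2 CPM in siZCC (log2 fold change 0.58, SE 0.0477, adjusted p = 7.21e-07). PER1 rose by 0.15 (adjusted p = 0.00572) and ERRFI1 fell by 0.15 (adjusted p = 0.0123). Of 12 heat shock genes, 1 rose and 1 fell (2 fell without siNC replicate 5). HSF1, the heat shock transcription factor, rose by 0.19 (adjusted p = 0.00106) and HSPH1, a chaperone, fell by 0.14 (adjusted p = 0.000541; edgeR's quasi-likelihood test for each).

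**Figure D5:**
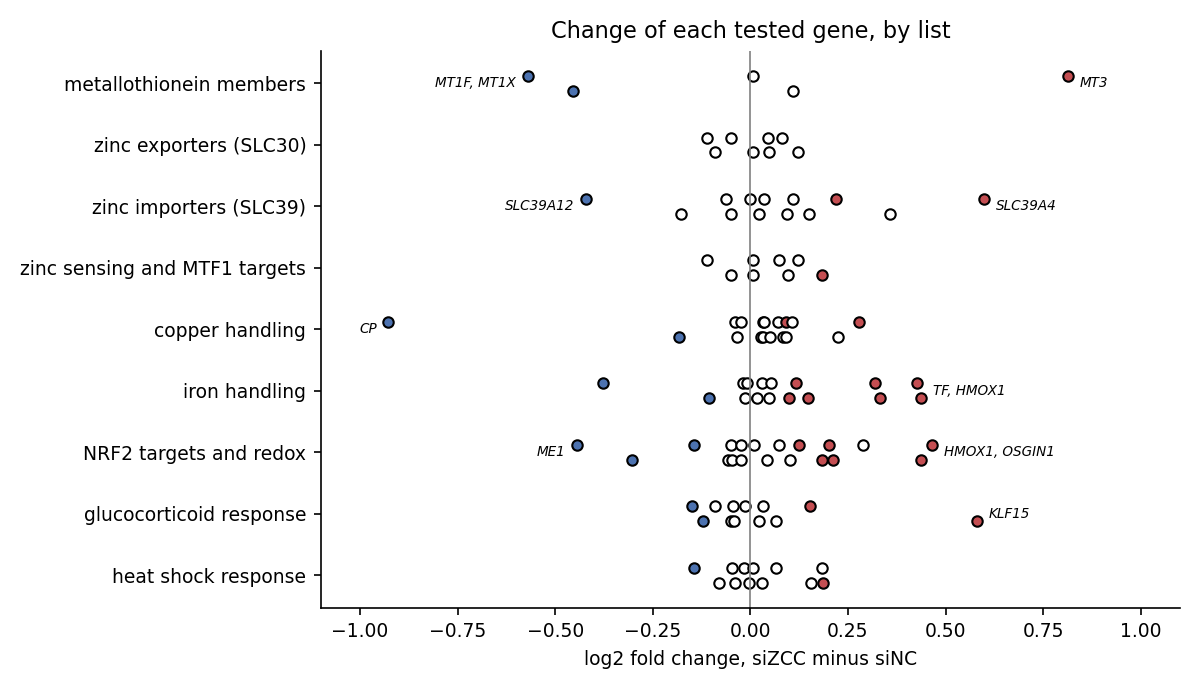
Log2 fold change (siZCC minus siNC, horizontal axis) of each tested gene, with 1 point per gene and 1 row per list; red points were called higher and blue points lower at an adjusted p under 0.05, and white points were not called. MT3 at 0.81 lies farther right than any point of the 8 other lists, CP at -0.93 farther left, and the zinc exporter row holds no coloured point.

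Metal response elements, the sites bound by MTF1, share the core TGCACNC or TGCGCNC, where N is any base. RefSeq promoter entries (GRCh38.p14) were matched for 2 of the 7 members, MT1X and MT2A. The stretch upstream of MT1X is shown because MT1X was called lower and 4 such cores lie upstream of it; it covers chr16:56682220-56682423 on the plus strand, up to the first annotated exon, with core matches on either strand in capitals.
MT1X upstream: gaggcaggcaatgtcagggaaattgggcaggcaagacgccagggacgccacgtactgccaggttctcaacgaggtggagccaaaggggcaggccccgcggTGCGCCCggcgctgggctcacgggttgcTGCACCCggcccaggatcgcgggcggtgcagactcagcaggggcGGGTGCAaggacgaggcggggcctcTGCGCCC
In the 250 bases before the RefSeq start, MT1X held 4 matches and MT2A 7, none of them overlapping another. The MT2A window lies wholly within the annotated 5′ UTR of a longer GENCODE transcript of that gene, so it is upstream of the RefSeq start only. The first bases of the MT1X matches lay at -150, -122, -78 and -53 from the start. Of 35116 human promoter windows of that length, 24.8% held at least 1 match, 0.37% at least 4 and 0.0313% at least 7. A match is only a description of the letters.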

How the data were processed

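The values are raw counts by gene symbol, as the authors deposited them, with 1 column for each library. Per the submitters' processing notes, bcl2fastq 2.17, STAR 2.7.6a, featureCounts 2.0.1 and the build GRCh38 were used. The annotation, the strand setting and the treatment of reads with several matches are not given in the sources used here. Total RNA from Qiazol lysates was made into libraries with a directional NEBNext kit, per the labels' protocols.

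These counts entered edgeR 4.0.16 (R 4.3.3) without change. filterByExpr kept 24671 of 59653 genes (at least 10 counts in the median library, or 0.0998 CPM, in enough libraries). Libraries were scaled by TMM, and groups were compared by glmQLFTest over all 12 libraries with Benjamini-Hochberg adjustment and a threshold of 0.05. The standard error is the log2 fold change divided by the square root of F. The biological coefficient of variation was 6.55%. At 76115083 to 120023356 counts per library, counting error was small for MT3 and MT2A and large for MT1G and MT1M. All 30 pairs of replicates differed by more than sampling noise (chi-square over its degrees of freedom 4.99 to 25.7). No library was thus a resampled copy of another, and n was kept at 6. That check cannot tell whether the replicates were separate cultures, and some pairs set a high-IL1B library against a low-IL1B library. The main fit was also run on counts simulated from its own means, library sizes and dispersions, and the outcome is not given here.

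The members and lists were chosen with earlier results of these data known. Genes were named by this rule: all 7 members, other metallothionein genes with a count, ZCCHC17, the 3 smallest p-values per list at an adjusted p under 0.05, and the 5 genes most like the MT1 and MT2A sum and most like MT3. MT1XP1, AC026461.1, SLC30A1, SLC30A9, TXNRD1, MTF1, IL1B and markers named for their level (MAP2, TUBB3, RBFOX3, GFAP, AQP4, VIM) were added after their values were seen. Alternatives were DESeq2 size factors, upper quartile scaling, no filter, a mean count of 50 or more, DESeq2 1.42.0 with its Wald test, voom of limma 3.58.1, a replicate block and leaving out each library. Added after seeing the data were a block, separate fits and an interaction by IL1B counts (over 100 or fewer), thinning to the smallest total, a correction for GC content and length, and summed MT1 counts. Some coding sequences are not reported here. Positions, coding sequences and word searches used GENCODE v29 and RefSeq promoters in Python 3.11.15 with Biopython 1.88.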

Additional observations from a re-analysis of the deposited data

Results flagged for a closer look

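1 value stood far from the others of its group. Among 6 siNC libraries, replicate 4 had a total of 90760000 counts, and the gap to the next library, at about 1.1e+08 counts, was 0.657 of the group's range, above Dixon's critical value for 6 values. It was 1 of 110 groups of 6 values compared, among which a rate of 1 in 20 gives 5.5. Without that library the log2 fold changes were 0.78 for MT3 (adjusted p = 0.00848), -0.48 for MT1F (adjusted p = 0.0497) and -0.48 for MT1X (adjusted p = 0.0507) in edgeR's quasi-likelihood test.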

How the results depend on the processing

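MT3 kept its direction and its call in every alternative run, and MT2A was called in none. Direction and call of MT1F also held, except among high-IL1B (-0.42) or low-IL1B libraries (-0.72), where 3 were set against 3. MT1X lost its call among low-IL1B libraries (-0.02), after thinning (-0.40) and in 9 of the fits without 1 library, which gave -0.57 to -0.38. MT1E, near 0, changed sign with upper quartile scaling (-0.0022), voom (-0.0238), the replicate block (-0.0094), thinning (-4e-04), the GC and length correction (-0.0054; with the replicate block -0.0209) and high-IL1B libraries (-0.26), and ran from -0.13 to 0.10 without 1 library. HPS6 did so with upper quartile scaling (-0.0068), no filter (-0.0041), voom (-0.0011), low-IL1B libraries (-5e-04) and the GC and length correction (-0.0401; with the replicate block -0.04), and ran from -0.0166 to 0.0234 without 1 library. The cause of these changes was not tested. The difference in the MT3 to MT2A ratio stayed at 0.64 to 0.87 without 1 library, and at 0.83 and 0.71 among high-IL1B and low-IL1B libraries with fewer samples. Members called numbered 2 to 3 without 1 library, 2 after thinning and among high-IL1B libraries, 1 among low-IL1B libraries and 3 in the other fits; genes called were 5481 in all, 2043 among high-IL1B, 1602 among low-IL1B and 4484 to 5626 without 1 library. Same-numbered libraries did not deviate together (r -0.077 to 0.018). Every same-numbered pair held 1 high-IL1B and 1 low-IL1B library, so these r values cannot decide whether the numbers pair them. Each pair of the replicate block holds that IL1B difference as well. With the replicate block 4902 genes and 3 members were called, and the paired ratio had p = 0.0312 in an exact sign-flip test. Of the other genes named, 1087 alternative values kept direction and call, 41 lost the call, 8 gained it and 13 changed sign. Among 3 against 3, SLC39A4, SLC39A11, GCLC, COMMD1, PER1, ERRFI1, HSF1, HSPH1, RNF157 and PODXL2 lost their call in at least 1 IL1B set. Without 1 library, astrocyte markers called higher numbered 7 to 8, neuronal markers called lower 5 to 8, iron genes called higher 6 to 7 and NRF2 targets called higher 5 to 7. Counts limit MT1E, MT1G and MT1M.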
